A study of Mus musculus with 24 samples.

Results

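The 9 genes described here are the corticosteroid receptors, the enzyme that regenerates their ligand, and genes known to respond to glucocorticoids: Nr3c1, Nr3c2, Hsd11b1, Fkbp5, Sgk1, Tsc22d3, Per1, Zbtb16 and Cdkn1a. They were found by gene symbol, and all 9 were among the 53379 genes of the count table and among the 37598 genes tested. Adult male C57/BL6N mice, bought at 8 weeks of age and acclimatized for 4 weeks, received kainic acid (KA) or saline (SH, sham) next to the right hippocampus, and the right hippocampus was taken 24 hours later. Mice of both groups had been anaesthetized with medetomidine and ketamine, given atipamezole as the antidote and treated with buprenorphine, and KA mice that did not convulse had been excluded. The 8 mice per treatment formed 3 pools (4 mice in replicate 1, 2 each in the others), and sorting the nuclei of a pool gave 1 mRNAseq library of NeuN+ nuclei (neurons) and 1 of NeuN- nuclei (glia), hence 12 libraries in 4 groups. The NeuN- gate keeps every nucleus that lacks the neuronal protein NeuN, so it can also hold endothelial cells and pericytes.

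Corticosterone, the main glucocorticoid of mice, diffuses into cells and binds the mineralocorticoid receptor with high and the glucocorticoid receptor with lower affinity, so that in hippocampal neurons the former is largely occupied at rest and the latter fills during stress. The bound receptor enters the nucleus, binds glucocorticoid response elements in DNA and switches on genes, several of which feed back on the receptor, on ion transport, on inflammation or on the clock. A seizure is itself a strong stressor, and the anaesthesia and surgery that KA and SH mice share are stressors as well.

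The response element, the DNA through which the receptor is known to act, is a palindrome of 2 half-sites. Matches to its letters next to the genes are shown, and whether the receptor binds them was not tested. The 13 letters GNACANNNTGTNC, which read the same on either strand, were searched within 5 kb of each start site listed by RefSeq (GRCm38.p6), which held entries for 7 of the 9 genes with 16 start sites in all. Matches were found for 4 of the 7 genes, and for 16.8% of all 27025 genes searched in this way. The 5 matches are printed 5′ to 3′ on the strand of the gene, with the match in capitals and 8 bases on each side, and the coordinates are those of the capitals.
Sgk1, chr10:21993702-21993714, + strand, 182 bases before the nearest of its start sites: tgcggaaaGAACAGAATGTTCtcggagat
Per1, chr11:69097077-69097089, + strand, 1866 bases before its first start site: agccaagaGAACACGATGTTCcctagtgc
Per1, chr11:69099417-69099429, + strand, 474 bases after its first start site: tcaggctgGAACATCCTGTTCtcagcgct
Fkbp5, chr17:28484953-28484965, - strand, 1190 bases after its start site: ggggctcgGGACAGGGTGTACagcgcttg
Cdkn1a, chr17:29094700-29094712, + strand, 937 bases after its second start site: tttggcggGCACAGTATGTTCccagggaa
All 5 lie in introns of the genes in GENCODE release M21. The letters GAACA and TGTTC frame both matches of Per1 and that of Sgk1, while those of Fkbp5 and Cdkn1a depart from them. No match was in the windows of Nr3c2, Hsd11b1 and Tsc22d3, which says only that these letters are not there. In the 300 bases from 250 before to 50 after a start site, 1 of the 16 windows held a match, that of Sgk1, and 0.475% of all 32851 such windows did.

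Values are read counts relative to library size after TMM scaling (CPM, counts per 1000000 reads), a scale on which a gene can be compared between libraries, and RPKM where genes are compared with each other, that is CPM per 1000 bases of exon. The differences are logFC (log2) from edgeR, tested by quasi-likelihood, and the FDR is the Benjamini-Hochberg value over all 37598 genes. A gene was called at an FDR below 0.25 for KA against SH, the threshold of the study, and below 0.05 for neurons against glia. The study fitted each cell type separately, so its calls can differ from those given here. Total counts ran from 7769400 to 40364768 per library, and the lowest count of any of the 9 genes in a library was 72. SH glia replicate 1 and KA glia replicate 2 were amplified from about 0.05 ng RNA with 15 PCR cycles, the other libraries from 1 ng with 10. The study sequenced mRNA libraries on different instruments, with single or paired reads. Which library ran on which is not stated, so a batch of this kind was not tested. KA and SH libraries of the same replicate number deviated together, so values of a second fit, blocked by replicate, are given beside those of the first. Comparisons across cell types were blocked by pool instead, since both fractions of a pool came from the same mice. The first fit leaves that pairing out. In pooled nuclei, fewer cells of a type and less RNA per cell cannot be told apart, and since RNA of nuclei was measured, nothing here concerns protein or hormone levels.

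Marker genes followed the sort in SH. Of 15 neuronal markers, 12 were higher in neurons and none in glia, and all 10 astrocytic, 8 oligodendrocytic and 5 oligodendrocyte precursor (OPC) markers and 9 of 10 microglial markers were higher in glia.

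Of the 9 genes, 1 was higher in SH neurons and 4 were higher in SH glia (6.05% and 4.67% of all genes were called in these directions). The receptors divided between the fractions. Nr3c2 (ENSMUSG00000031618, chromosome 8 from 76899442 to 77245012) encodes the mineralocorticoid receptor. It had 113, 140.5 and 215 CPM in the SH neurons of replicates 1, 2 and 3, and 16.2, 51.4 and 47.8 CPM in SH glia. All neurons lay above all glia, with a logFC of 2.02 (standard error 0.42, FDR 0.00448). Nr3c1 (ENSMUSG00000024431, chromosome 18 from 39410545 to 39519421) encodes the glucocorticoid receptor. It had 120.4, 83.2 and 91.6 CPM in SH neurons and 191, 157 and 162 CPM in SH glia. Here all glia lay above all neurons. The logFC of -0.79 (standard error 0.31, FDR 0.146) was not called in the first fit. It was called with the block by pool (FDR 0.00919) and by DESeq2. Per length, Nr3c1 had between 0.359 and 0.894 times the level of Nr3c2 in the 6 libraries of neurons and between 2.57 and 9.93 times in the 6 libraries of glia. The highest value of each range came from a replicate 1 library of SH mice, in glia a low-input one. The glial libraries also held neuronal RNA. In replicates 1, 2 and 3 the 15 neuronal markers summed to 1318, 3624 and 4535 CPM in SH glia. The sums were 968, 2004 and 4147 CPM in KA glia, beside 16757 to 27382 CPM in SH neurons. The part of neuronal RNA in the glial values of Nr3c2 and in these ratios was not tested. Of the exon bases of Nr3c2, 3.82% lie in exons of the antisense gene Gm10649, and reads there could not be assigned by strand, since the strand was not used.

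**Figure D1:**
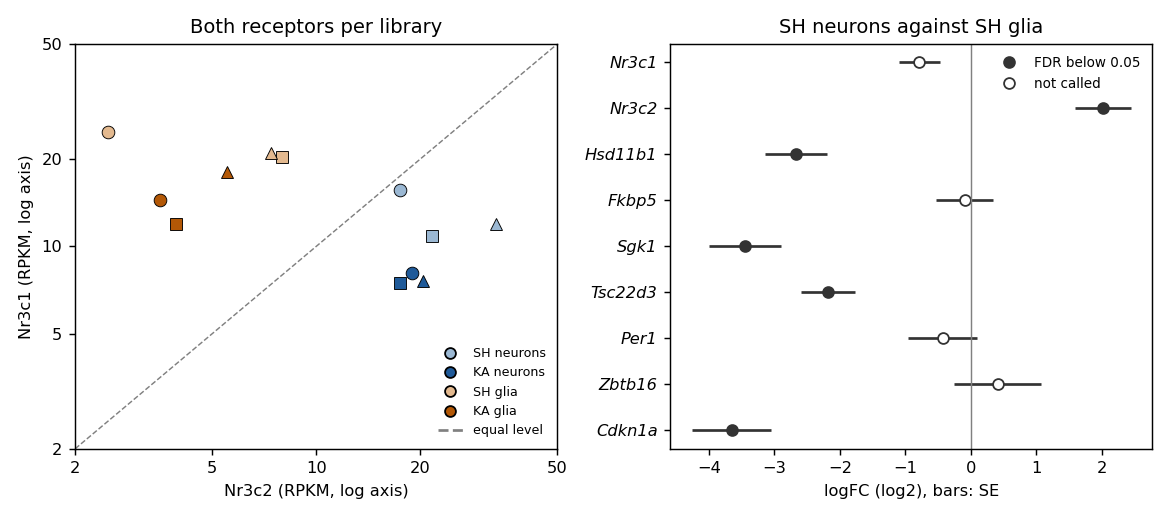
Left, RPKM of Nr3c2 (x axis, log scale) and Nr3c1 (y axis, log scale) in each of the 12 libraries, with circles, squares and triangles for replicates 1, 2 and 3 and a dashed line at equal levels; neurons lie below the line and glia above it. Right, logFC (log2) of SH neurons against SH glia with its standard error for the 9 genes; Nr3c2 is at 2.02, and Hsd11b1, Sgk1, Tsc22d3 and Cdkn1a are called between -2.18 and -3.65.

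The 4 genes higher in SH glia were Hsd11b1, Sgk1, Tsc22d3 and Cdkn1a. Sgk1 (ENSMUSG00000019970, chromosome 10 from 21882184 to 21999903), a kinase that regulates ion channels and transporters and is well known from oligodendrocytes, had the highest level per length of the 9 genes in glia, 268 RPKM in SH. Its logFC was -3.45 (standard error 0.54, FDR 0.000649). Cdkn1a, the cyclin-dependent kinase inhibitor p21, had a logFC of -3.65 (standard error 0.61, FDR 0.000938). The values were -2.67 (FDR 0.00138) for Hsd11b1 and -2.18 (FDR 0.00244) for Tsc22d3. For each of the 4 genes all SH glia lay above all SH neurons. These calls and that of Nr3c2 were kept in all 6 fits that left out 1 SH library, but Nr3c2 was not called without both low-input libraries. Fkbp5, Per1 and Zbtb16 overlapped between the fractions, with logFC of -0.09, -0.43 and 0.41.

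Of the receptors, neither was called between KA and SH in the fit of group means, in which 0.279% of all genes were called higher and 0.0612% lower in KA neurons, and 0.442% and 0.306% in KA glia. For Nr3c1 in neurons, the KA libraries had 62.2, 57.4 and 58.3 CPM, all below the 83.2 to 120.4 CPM of SH. The mean was 98.4 ± 19.5 in SH and 59.3 ± 2.52 CPM in KA (SD, n = 3). In glia, the KA libraries had 111.5, 91.7 and 139 CPM, again all below the 157 to 191 CPM of SH, with means of 169.7 ± 18.2 in SH and 114 ± 23.8 CPM in KA (SD, n = 3). The logFC in neurons was -0.73 (standard error 0.31, FDR 1.00, unadjusted p = 0.033 in edgeR). In glia it was -0.57 (standard error 0.31, FDR 1.00). With the replicate block Nr3c1 was called lower in both, with an FDR of 0.211 in neurons and 0.247 in glia, close to the threshold. With the block, 1.11% of all genes were called lower in KA neurons and 4.17% in KA glia. The difference between the cell types in the logFC of Nr3c1 was -0.16 (standard error 0.44, FDR 1.00).

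Nr3c2 overlapped between KA and SH in both cell types. The KA neurons had 123, 113 and 132 CPM, and the KA glia 22.9, 25.4 and 35.7 CPM. Its logFC was -0.35 (standard error 0.41) in neurons and -0.46 (standard error 0.41) in glia, both with an FDR of 1.00, and it was not called with the block either.

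Hsd11b1 (ENSMUSG00000016194, chromosome 1 from 193221634 to 193264075) encodes 11β-hydroxysteroid dehydrogenase type 1, which turns inert 11-dehydrocorticosterone into corticosterone inside the cell. In glia it had 74.5, 22.9 and 31.3 CPM in SH and 22.8, 11.3 and 8.24 CPM in KA. The groups did not overlap, but SH replicate 2 and KA replicate 1 nearly met, and SH replicate 1, a low-input library, stood well above the other SH libraries. The logFC in glia was -1.61 (standard error 0.45, FDR 0.287), just outside the threshold, and -1.55 (FDR 0.00474) with the replicate block. In neurons, where it was low, Hsd11b1 had 6.17, 5.94 and 8.00 CPM in SH and 9.40, 8.88 and 11.2 CPM in KA. All KA neurons thus lay above all SH neurons, with a logFC of 0.55 (standard error 0.45, FDR 1.00) that was not called with the block (FDR 0.713). The difference between the cell types was 2.16 (standard error 0.63, FDR 1.00). With a block by pool it was 2.10 (standard error 0.51, FDR 0.224) and was called, as were 0.471% of all genes in that fit. Without a block, 0% of all genes and 0 of the 9 were called for the difference by edgeR, 2 of the 9 had an unadjusted p under 0.05, and DESeq2 called 0 of the 9. Without SH glia replicate 1 the logFC of Hsd11b1 in glia was -0.80, the smallest of the 6 fits that left out 1 library of glia.

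**Figure D2:**
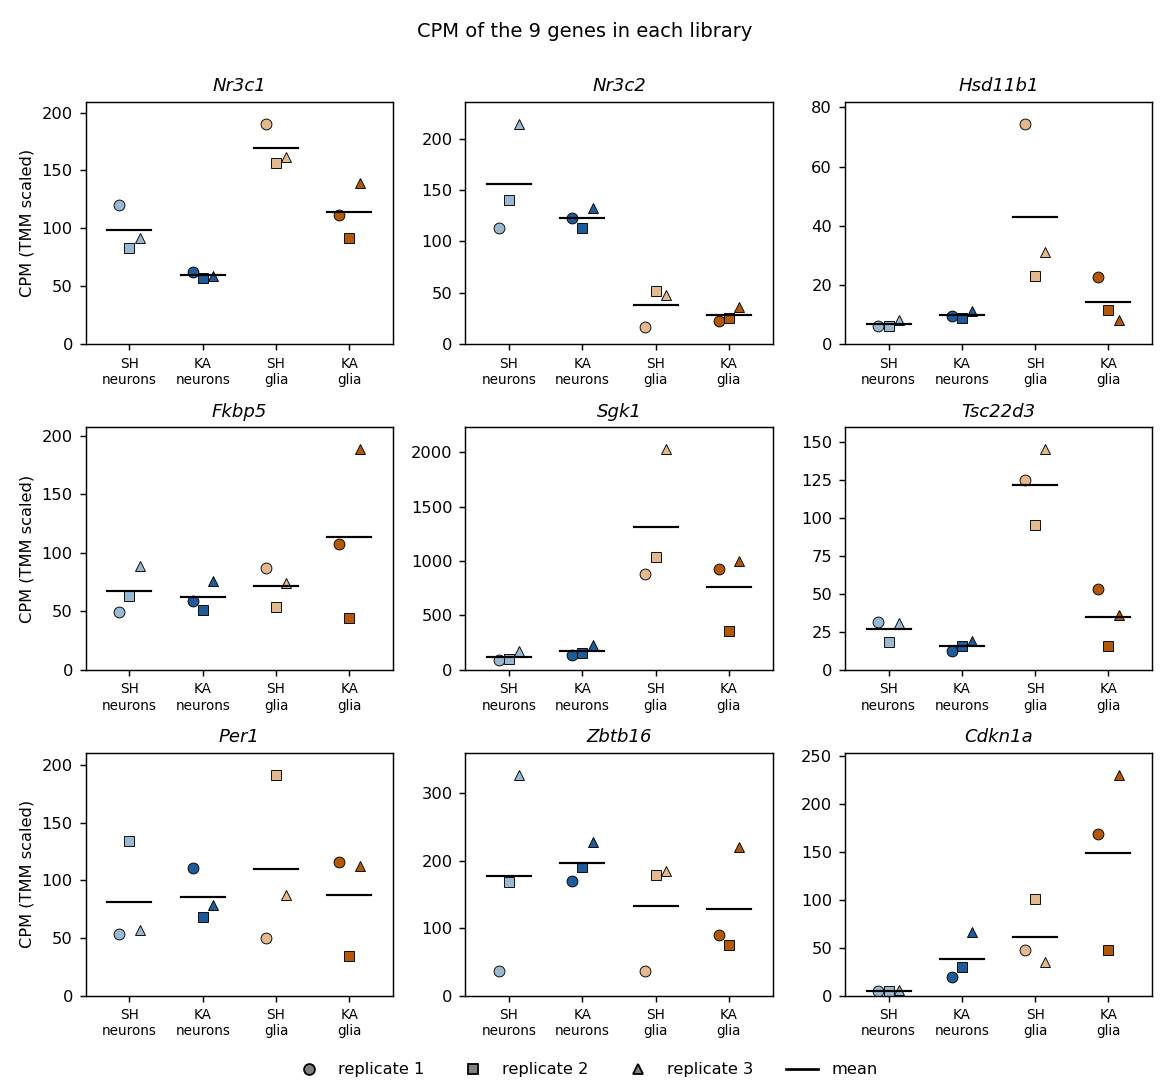
CPM after TMM scaling (y axis, starting at 0, on a scale of its own for each gene) of the 9 genes in the 3 libraries of each group; circles, squares and triangles stand for replicates 1, 2 and 3 and lines for means. KA and SH libraries are separated for Nr3c1, Hsd11b1 and Cdkn1a in neurons and for Nr3c1, Hsd11b1 and Tsc22d3 in glia.

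Among the responsive genes, Cdkn1a was upregulated in neurons and Tsc22d3 downregulated in glia. These were the only calls among the 9 genes in the fit of group means. The study, which fitted each cell type separately, listed Cdkn1a as higher in neurons and did not list Tsc22d3 in glia. In separate fits here, Cdkn1a in neurons kept its call (FDR 0.00643) and Tsc22d3 in glia lost it (FDR 0.465). Cdkn1a (ENSMUSG00000023067, chromosome 17 from 29090976 to 29100727) is induced by glucocorticoids in many cells but is best known as a target of p53. In neurons it had 4.36, 4.34 and 5.80 CPM in SH and 19.7, 29.5 and 65.9 CPM in KA. The 3 SH libraries lay close together, and the lowest KA library was well above them. The logFC was 2.99 (standard error 0.59, FDR 0.0893), and 2.83 (FDR 0.00397) with the block. The call was lost without any one of the SH libraries of neurons or without KA neurons replicate 3, where the logFC was between 2.35 and 3.30 over the 6 fits that left out 1 library of neurons, with an FDR between 0.0489 and 0.594. In glia Cdkn1a had 47.6, 100.3 and 34.9 CPM in SH and 169, 47.3 and 229.6 CPM in KA. KA replicate 2, the low-input library, lay in the range of SH there, and the logFC of 1.29 (standard error 0.55, FDR 0.920) was not called with the block either (FDR 0.273). The difference between the cell types was 1.70 (standard error 0.78, FDR 1.00).

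Since Cdkn1a was higher in glia than in neurons, markers of glia in the NeuN+ libraries were set beside it. Summed over each list, the 10 astrocytic markers had 215 to 626 CPM in SH neurons and 237 to 729.5 CPM in KA neurons. The 10 microglial markers had 53.7 to 106 and 46.6 to 109.5 CPM, and the 8 oligodendrocytic markers 324 to 1280 and 145 to 708 CPM. All 3 sums overlapped between KA and SH neurons, none was at 0 in any library, and 0 of the 28 were called in neurons by edgeR. Of them 4 had an unadjusted p under 0.05, DESeq2 called 2 astrocytic markers higher and 1 microglial marker lower, and with the block 2 astrocytic markers were called higher and 1 of each list lower. The part of glial RNA in the values of Cdkn1a was not tested. Of the exon bases of Cdkn1a, 7.68% lie in exons of the antisense gene AC167363.2. Over the 12 libraries, the genes with the most similar log2 CPM were Mapk6 (Pearson's r = 0.963), Plce1 (0.959) and Bag3 (0.951), where the libraries share pools, treatment and cell type.

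Tsc22d3 (ENSMUSG00000031431, chromosome X from 140539528 to 140600659) encodes the glucocorticoid-induced leucine zipper, a protein that restrains inflammatory transcription factors. In glia it had 125, 95.2 and 145 CPM in SH and 53.5, 15.9 and 35.8 CPM in KA. All KA libraries lay below all SH libraries, and the lowest was the low-input one. The mean was 121.9 ± 25.2 CPM in SH and 35.1 ± 18.8 CPM in KA (SD, n = 3). Its logFC was -1.80 (standard error 0.41, FDR 0.124), and -1.94 (FDR 0.00097) with the block. The call was lost without replicate 2 or 3 of KA glia or replicate 1 or 3 of SH glia, with logFC between -2.24 and -1.58 over the 6 fits that left out 1 library of glia, and also without both low-input libraries. In neurons the values were 31.2, 18.1 and 31.1 CPM in SH and 12.3, 15.8 and 18.8 CPM in KA. Only KA replicate 3 reached into the SH range, above SH replicate 2, and the logFC of -0.78 (standard error 0.40, FDR 1.00) was not called with the block (FDR 0.401). The difference between the cell types was 1.02 (standard error 0.57, FDR 1.00).

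Marker genes of several glial types were lower in KA glia as well. The 8 oligodendrocytic markers summed to 14307 to 29793 CPM in SH glia and 7540 to 14090 CPM in KA glia, and the 5 OPC markers to 1656 to 3018 and 753 to 1463 CPM, without overlap. Of the single genes, 5 of 8 and 4 of 5 were separated and lower, and 0 and 1 were called; 3 of each had an unadjusted p under 0.05 in edgeR, and DESeq2 called 2 and 3. The astrocytic markers summed to 1796 to 2614 CPM in SH and 1144 to 2191 CPM in KA, and the microglial markers to 1119 to 2540 and 831 to 1672 CPM, with overlap, and 1 of 10 and 2 of 10 were called, all lower. Not all astrocytic markers were lower, since 2 of the 10 were separated and higher in KA glia, 3 being separated and lower. DESeq2 called 1 astrocytic marker higher (Gfap, the intermediate filament gene of reactive astrocytes) and 2 lower, and 3 microglial markers lower. With the block 5 oligodendrocytic, 4 OPC and 3 microglial markers were called lower in glia, and of the astrocytic markers 5 were lower and 1, Gfap, was higher. Gfap was picked after its values had been seen. None of these 33 markers was at 0 in any library of glia. Of 7 endothelial and 6 tested leukocyte markers, 5 each had a positive logFC in glia, with medians of 0.71 and 0.58. Of 5 pericytic markers 1 did, with a median of -0.37. These 3 sums overlapped between KA and SH glia, and edgeR called 0 of these markers without the block. With it 1 endothelial marker was called higher and 1 pericytic marker lower, and DESeq2 called 1 pericytic marker lower. The part of these marker shifts in the lower values of Tsc22d3, Hsd11b1, Sgk1 and Nr3c1 was not tested. The genes most like Tsc22d3 over the 12 libraries were Abhd17b (Pearson's r = 0.973), Cspg5 (0.969) and Aldoc (0.967), the last one of the astrocytic markers called lower.

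Sgk1 in neurons had 89.8, 103 and 168 CPM in SH and 132, 150.5 and 227 CPM in KA, with overlap. In glia it had 884, 1031 and 2025 CPM in SH and 927, 360 and 997 CPM in KA. The highest SH value was that of replicate 3 and the lowest KA value that of the low-input library. The logFC was 0.50 (standard error 0.50) in neurons and -0.79 (standard error 0.50) in glia, both with an FDR of 1.00. With the block Sgk1 was called lower in glia (FDR 0.133). The difference between the cell types was 1.29 (standard error 0.70, FDR 1.00) in the fit of group means. With the block by pool it was 1.34 (standard error 0.42, FDR 0.495).

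Fkbp5, Per1 and Zbtb16, which are among the genes most often used as readouts of glucocorticoid exposure in brain, were not called in either cell type, with or without the block. Fkbp5 (ENSMUSG00000024222, chromosome 17 from 28399094 to 28517527) encodes a cochaperone that lowers the affinity of the receptor for its ligand. It had 49.6, 62.8 and 88.8 CPM in SH neurons and 58.8, 51.3 and 75.8 CPM in KA neurons, one range inside the other. In glia it had 87.1, 53.9 and 73.9 CPM in SH and 107, 44.0 and 188 CPM in KA, where the low-input library of replicate 2 was below all SH libraries and the others above them. The logFC was -0.12 (standard error 0.43) in neurons and 0.66 (standard error 0.44) in glia. With 1 library of glia left out at a time the value in glia lay between 0.07 (without KA glia replicate 3) and 1.02 (without KA glia replicate 2), and it was 1.08 without both low-input libraries.

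Per1 (ENSMUSG00000020893, chromosome 11 from 69095217 to 69109960), a repressor of the circadian clock that glucocorticoids and neuronal activity induce, had 53.4, 134 and 56.8 CPM in SH neurons and 111, 68.5 and 78.4 CPM in KA neurons. In glia it had 50.0, 191.5 and 87.7 CPM in SH and 116, 34.5 and 113 CPM in KA. Replicate 2 was the highest SH and the lowest KA library in both cell types. The logFC was 0.07 (standard error 0.53) in neurons and -0.32 (standard error 0.53) in glia, and its sign turned in either cell type when single libraries were left out.

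Zbtb16 (ENSMUSG00000066687, chromosome 9 from 48654297 to 48836222), a zinc finger transcription factor, had 35.7, 169 and 327 CPM in SH neurons and 170.5, 191 and 228 CPM in KA neurons. In glia it had 35.7, 179 and 184 CPM in SH and 89.9, 75.5 and 220 CPM in KA. The SH pool of replicate 1 was low in its neurons and in its glia alike, and no other library was below 75.5 CPM. The logFC was 0.15 (standard error 0.67) in neurons and -0.05 (standard error 0.67) in glia, and without SH neurons replicate 1 it was -0.34 in neurons.

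**Figure D3:**
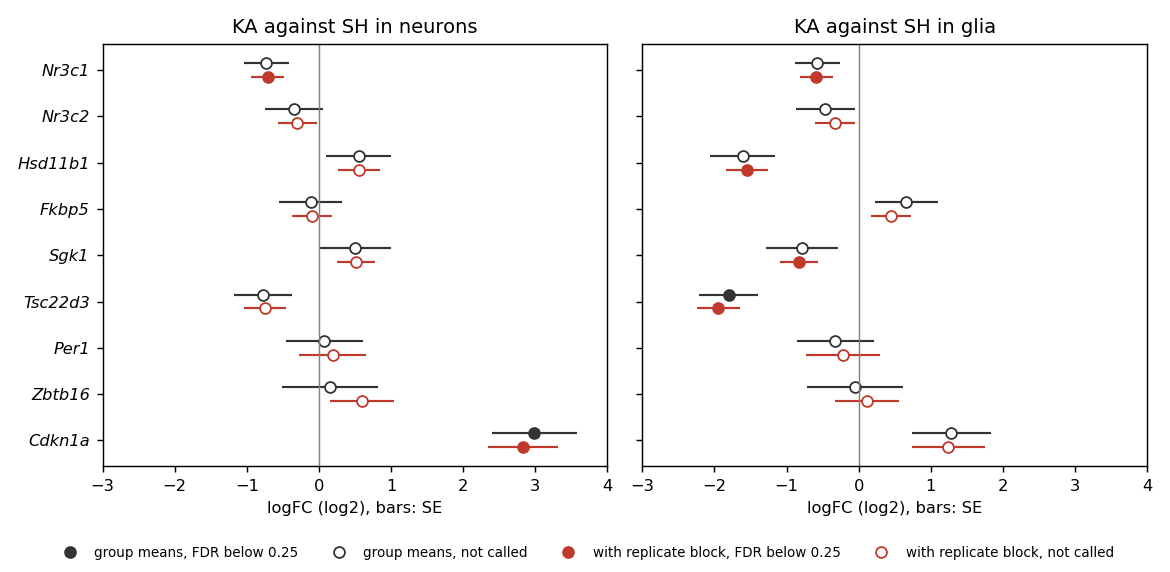
logFC (log2, x axis) of KA against SH with its standard error for the 9 genes in neurons (left) and glia (right), from the fit of group means (black) and with the replicate block (red); filled points passed an FDR of 0.25. Cdkn1a in neurons and Tsc22d3 in glia are filled in both fits, and Nr3c1 in both cell types, Hsd11b1 and Sgk1 in glia only with the block.

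Counted together, 1 of the 9 genes was called in each cell type, with a median logFC of 0.07 in neurons and -0.46 in glia; the medians of all genes tested were 0.00048 and 0.14. With the block, 1 gene was called higher and 1 lower in neurons, and none higher and 4 lower in glia. Of all genes, 1.94% were called higher and 1.11% lower in neurons in that fit, and 3.47% higher and 4.17% lower in glia. KA lay above SH without overlap for 2 of the 9 genes and below for 1 in neurons, and above for 0 and below for 3 in glia. Of all genes, 5.27% and 4.45% were separated in these directions in neurons and 3.61% and 3.00% in glia.

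Other genes that glucocorticoids are known to induce were taken from a list of 26, all of which were tested. In neurons 1 of the 26 was called, upregulated, and in glia 4 were, all upregulated. In neurons this was Angptl4, an inhibitor of lipoprotein lipase, from 1.81 ± 0.80 to 9.68 ± 4.89 CPM (SD, n = 3; logFC 2.41, FDR 0.145). In glia these were Cebpd, a transcription factor of the acute phase (logFC 1.99, FDR 0.0469), Tgm2, which encodes transglutaminase 2 (2.72, FDR 0.124), Gpd1, the glycerol-3-phosphate dehydrogenase induced in oligodendrocytes (1.86, FDR 0.141), and Map3k6, a stress-activated kinase (2.59, FDR 0.245). Gpd1 went from 83.1 ± 23.8 to 302 ± 150.2 CPM and Cebpd from 49.0 ± 6.12 to 195 ± 82.1 CPM in glia (SD, n = 3). The median logFC of the list was 0.25 in neurons and 0.36 in glia. With the block 6 of the 26 were called higher and 0 lower in neurons, among them the metallothioneins Mt1 and Mt2 and the phosphatase gene Dusp1, and 7 higher and 4 lower in glia. DESeq2 called 5 higher and 0 lower in neurons, and 5 higher and 1 lower in glia. The gene lower in glia was Sult1a1, a sulfotransferase gene, with a logFC of -1.95 in edgeR (FDR 0.434). In its separate fits the study listed Sult1a1 as lower in glia and Crispld2, also of the 26, as higher in neurons. It did not list Tgm2. Mt1, Mt2, Dusp1 and Sult1a1 were picked after their values had been seen. With 1 library of the cell type left out at a time (6 fits), Cebpd kept its call in 6, Map3k6 and Tgm2 in 3 (not without replicate 3 of KA glia or replicate 1 or 3 of SH glia), Gpd1 in 1 (without KA glia replicate 1) and Angptl4 in 1 (without KA neurons replicate 1). Without both low-input libraries, none of the 4 was called in glia.

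**Figure D4:**
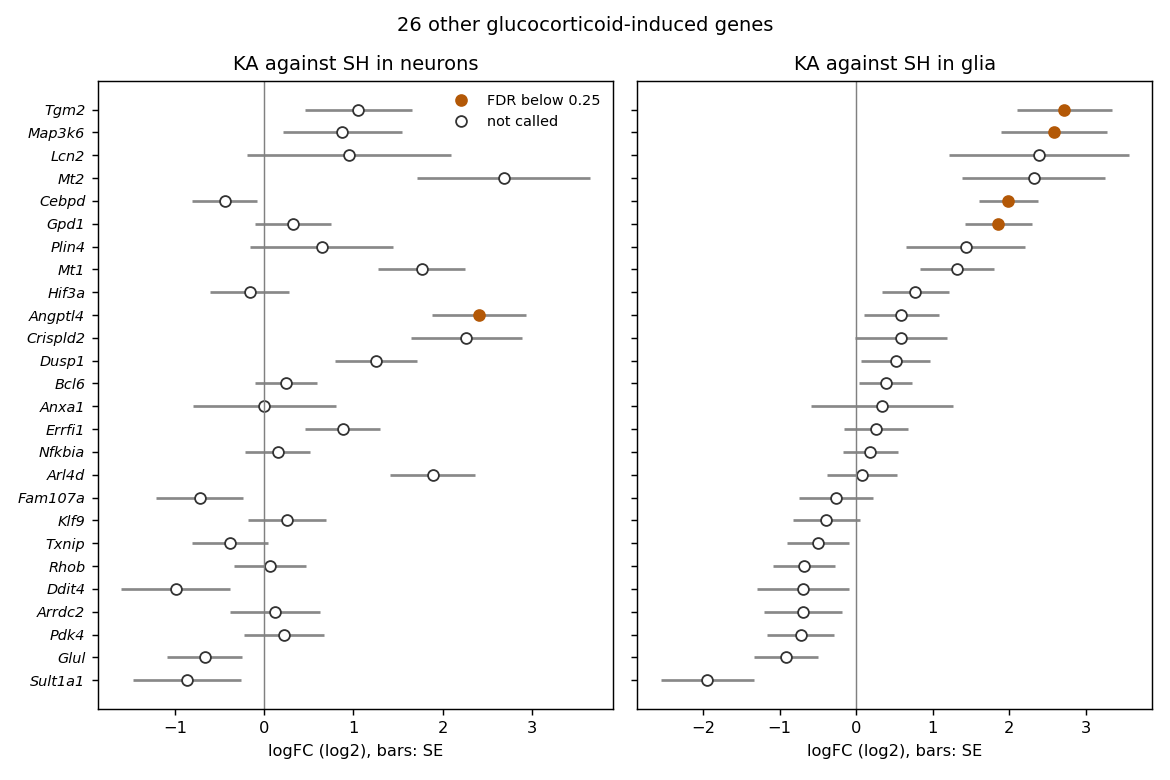
logFC (log2, x axis) of KA against SH with its standard error for the 26 other glucocorticoid-induced genes in neurons (left) and glia (right), ordered by the value in glia; filled points passed an FDR of 0.25. Angptl4 is filled in neurons, and Cebpd, Tgm2, Gpd1 and Map3k6 in glia.

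Of 14 further clock genes, 1 was called in each cell type and both were lower. Per3 went from 309 ± 107 to 108 ± 27.7 CPM in neurons (SD, n = 3; logFC -1.51, FDR 0.208), and Dbp, a transcription factor driven by the clock, from 29.6 ± 4.66 to 8.75 ± 3.31 CPM in glia (SD, n = 3; logFC -1.77, FDR 0.0687). With the block 3 of the 14 were called lower and 1 higher in neurons, and 6 lower in glia. DESeq2 called 3 lower in neurons and 5 lower in glia. The medians of the list were -0.28 and -0.59. Dbp was no longer called without replicate 2 of KA glia or replicate 3 of SH glia, nor without both low-input libraries, and Per3 was called in 0 of the 6 fits that left out 1 library of neurons. Of 12 targets of p53, the factor known to induce Cdkn1a, 1 was called in neurons: Btg2, an antiproliferative gene that neuronal activity also induces, with 40.0 ± 12.1 CPM in SH and 125 ± 41.6 CPM in KA (SD, n = 3; logFC 1.64, FDR 0.202), and 0 in glia, where 3 had an unadjusted p under 0.05 in edgeR and DESeq2 called 0. With the block 2 of the 12 were called higher in neurons, Btg2 and Plk2, and 2 higher in glia, Sesn2 (FDR 0.206) and Gadd45a (FDR 0.0541). Plk2, Sesn2 and Gadd45a were picked after their values had been seen. Btg2 was called in 1 of the 6 fits that left out 1 library of neurons, that without KA neurons replicate 1. The medians of that list were 0.08 and 0.26. Among its differentially expressed genes the study listed neither Per3 in neurons nor Dbp in glia. For neurons it listed Btg2 as higher only in its combined analysis of methylation and expression.

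The machinery around the receptors gave no calls in edgeR without the block, and DESeq2 called none of these 27 genes either; 1 of them, Ncoa3 in glia, had an unadjusted p under 0.05. Of the 8 receptor chaperones 0 were called, with Fkbp4 (logFC -0.53) and Hsp90ab1 (-0.49) in glia having the smallest p values. All 8 had a negative logFC in neurons and 7 of 8 in glia. Of all 37598 genes, 18814 had a positive logFC in neurons and 22028 in glia. Of 10 coregulators 0 were called; Ncoa3 had a logFC of -1.02 in glia (FDR 0.963), which was called with the block (FDR 0.0288), and Ncoa2 one of 0.65 (FDR 1.00), called higher with the block (FDR 0.211). Of 5 genes of ligand metabolism and transport 0 were called. H6pd, which supplies the cofactor to the enzyme that Hsd11b1 encodes, had a logFC of 0.87 in glia (FDR 1.00), called with the block (FDR 0.215), and Hsd11b2, the opposing enzyme, was barely detected, with 0.39 to 1.46 CPM in SH glia and 0.087 to 0.61 CPM in KA glia. Of 4 other steroid receptors 0 were called, and Esr1, an estrogen receptor gene, had a logFC of 0.73 in glia (FDR 1.00).

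Relatives of the responsive genes were not called by edgeR without the block either. Of these 11 genes, 2 had an unadjusted p under 0.05 in glia and 0 in neurons, and DESeq2 called 1, Sgk2 in glia. Of 6 other cell cycle inhibitors of the families of Cdkn1a 0 were called. Cdkn1b, which encodes the inhibitor p27, had a logFC of -1.02 in glia (FDR 0.853), called lower with the block (FDR 0.122), and Cdkn2d one of -0.61 in neurons (FDR 1.00). Of 5 paralogs of Tsc22d3 and Sgk1 0 were called. In glia Sgk2 had a logFC of -1.09 (FDR 0.504) and Tsc22d1 one of -0.66 (FDR 1.00), and both were called lower with the block, with FDR of 0.112 and 0.164.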

How the data were processed

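The authors trimmed reads with Trim Galore 0.4.3, aligned them to mm10 (Rsubread) and counted those with a unique position by gene of GENCODE M16 (featureCounts, defaults). The deposited values are raw read counts for each gene and library. Libraries had been made from nuclear RNA by oligo(dT) priming. Of the 53379 genes, 105 without a symbol in GENCODE M21 were left out. Counts passing filterByExpr (minimum count 10, minimum total 15) were scaled by TMM and fitted with edgeR 4.0.16 (glmQLFit with legacy=TRUE) in R 4.3.3, with 12 libraries and 4 group means that share 1 estimate of the spread. RPKM used the merged exon length of GENCODE M21. That the pools were separate mice comes from the study's methods.

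Deviations from the group means correlated between KA and SH libraries sharing a replicate number, at 0.399, 0.264 and 0.551 in neurons and 0.457, 0.543 and 0.764 in glia, so a replicate block was fitted beside the group means. This pairing of KA with SH comes from the data and the shared numbers, and the methods do not describe those pools as paired. Contrasts across cell types were blocked by pool. That pairing is part of the design, since NeuN+ and NeuN- nuclei of a pool were sorted from the same tissue.

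The 9 genes and the lists of 90 further genes and of markers were chosen with earlier results of these data known. Named were all 9 genes, the called genes of each list or, with no call, the 2 with the smallest p value, and for each called gene the 3 genes most correlated with it among those with a mean of at least 5 CPM (log2 CPM, prior count 2). Alternatives were separate fits, RLE scaling, DESeq2 1.42.0, edgeR without legacy, other filters and thresholds, autosomes, and libraries left out. Fits were tested on simulated data. RRBS data were not used here, and 1 gene that this rule names is not reported here. Figures were drawn with matplotlib 3.10.9.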

Additional observations from a re-analysis of the deposited data

Results flagged for a closer look

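Hsd11b1 is listed because its KA libraries all lay above the SH libraries in neurons and all below them in glia. The difference between the 2 logFC values was 2.16 (standard error 0.63) by the quasi-likelihood test of edgeR, with an unadjusted p = 0.00348 and an FDR of 1.00. With a block by pool it was 2.10 with an FDR of 0.224. In glia, SH replicate 2 (22.9 CPM) and KA replicate 1 (22.8 CPM) were almost equal, and in neurons the highest SH library (8.00 CPM) was close to the lowest KA library (8.88 CPM). Groups of 3 libraries are too small to search for outlying values.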

How the results depend on the processing

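The 1 call in neurons became 0 at an FDR of 0.05 and without the replicate 3 libraries (a choice made after seeing the data) and 2 with the replicate block, and ranged from 0 to 1 when 1 library was left out. The 1 call in glia became 0 at an FDR of 0.05, in separate fits of the cell types, with autosomes only (Tsc22d3 is X-linked), without both low-input libraries and without the replicate 3 libraries. It became 2, with Hsd11b1 added, under RLE scaling, DESeq2, edgeR without legacy, no filter and a minimum of 10 counts in every library, and 4 with the replicate block; with 1 library left out it ranged from 0 to 2. The 0 calls for the difference became 1 with the block by pool. Of the calls between the fractions, 4 to 6 were made in every alternative. The block changed no other call of the 9 genes than those given beside their values. Apart from autosomes, the cause of these moves was not tested. Separate fits give no difference between cell types or fractions.

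The sign turned only for genes without a call. For Fkbp5 in neurons it was 0.028 with scaling by total count (also chosen after seeing the data), and between -0.29 and 0.14 with 1 library left out. Per1 in neurons had -0.069 without the replicate 3 libraries and -0.16 to 0.64 with 1 library left out, and in glia -0.57 to 0.34. Zbtb16 had -0.34 to 0.94 in neurons and -0.70 to 0.25 in glia with 1 library left out, and in glia 0.031 in separate fits, 0.11 with the replicate block and 0.079 with scaling by total count. That scaling moved the median logFC of all genes by 0.11 in neurons and 0.28 in glia, and of neurons against glia by -0.34. Between RLE and TMM the last moved by -0.15. The lowest count of the 9 genes in a library was 72 reads, and how far depth limits their values was not tested.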

Other observations

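In SH mice, 13 of the 26 other glucocorticoid-induced genes were higher in glia and 0 in neurons at an FDR below 0.05 in edgeR. Of all genes, 4.67% and 6.05% were called in these directions. With the block by pool 18 and 0 were called, beside 2841 and 5322 of all 37598 genes. DESeq2 called 16 and 0. The median logFC of neurons against glia was -1.51 for the list and 0.01 for all genes. Examples, chosen after their values were seen, were Txnip, an inhibitor of thioredoxin (logFC -3.43, standard error 0.44), Glul, glutamine synthetase of astrocytes (-3.37, standard error 0.46), Pdk4, which throttles pyruvate oxidation (-3.32, standard error 0.48), and Nfkbia, an inhibitor of NF-κB (-2.47, standard error 0.38). Of the other steroid receptors, the progesterone receptor gene Pgr was higher in neurons (2.28, standard error 0.36). Among paralogs, Sgk2 (-3.45, standard error 0.39) and Tsc22d4 (-3.31, standard error 0.46) were higher in glia, as were Sgk1 and Tsc22d3.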
